A study of Mus musculus with 8 samples.

Results

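The measurements below are the RNA levels of *Tdrd3* and of 9 genes whose proteins bind TDRD3, are paralogs of such a protein, or share RNA granules with it, in cultures polarized toward induced regulatory T cells (iT_regs_). The genes were chosen by name, from what is known of the proteins, at a point when earlier results of these data were known: *Tdrd3*, *Top3b*, *Top3a*, *Fmr1*, *Fxr1*, *Fxr2*, *G3bp1*, *G3bp2*, *Caprin1* and *Usp9x*. All 10 were among the 11911 genes of the table, and all 10 were among the 11317 genes with enough counts to be tested. Bulk RNA sequencing was done on 8 libraries, 4 of each genotype, to ask how RNA levels differ when *Tdrd3* is deleted under the control of *Foxp3*. Both genotypes carried the *Foxp3 YFP-Cre* allele, which makes YFP and Cre from the *Foxp3* locus, and mice with that allele alone were the controls. Mice of the other genotype, *Tdrd3 fl/fl/Foxp3 YFP-Cre*, had both copies of *Tdrd3* flanked by loxP sites as well, and their cultures are named floxed here. Naïve CD4+ T cells from the spleen were kept for 36 hours with TGF-β, antibodies that stimulate CD3 and CD28, and antibodies that block IFN-γ and IL-4, with the same treatment and time in both genotypes. Cre appears only after *Foxp3* is transcribed and no sort for YFP was named, so each library could hold RNA from cells that had not deleted *Tdrd3*. The mouse strains had been bred to C57BL/6J, and no age was given for these cultures. The counts of the listed genes summed to between 13258239 and 16001676 per library.

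TDRD3 has a Tudor domain, a fold that binds methylated arginines on histones and on RNA polymerase II, and it is known as a coactivator of transcription. It has no enzyme activity of its own and holds TOP3B, a topoisomerase that can pass strands of RNA as well as DNA, and the pair joins FMRP and its relatives on messenger RNAs. Under stress TDRD3 enters the cytoplasmic granules that G3BP proteins build, and the deubiquitinase USP9X has been described as its partner.

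T cell markers were abundant in every library. The 6 T cell markers (*Cd3d*, *Cd3e*, *Cd3g*, *Cd4*, *Cd28* and *Lck*) summed to between 1662 and 1795 normalized CPM, which are counts scaled to the same total over the tested genes of each library, and the most abundant, *Cd4*, lay between 581 and 652. Their log2 fold changes ran from −0.1 for *Cd28* (95% interval −0.19 to −0.0077) and *Cd3e* (−0.22 to 0.0074), through −0.063 for *Cd4* (−0.14 to 0.014), to 0.047 for *Cd3g* (−0.07 to 0.16). None of the 6 was called by edgeR or DESeq2, and 1, *Cd28*, had an unadjusted *P* under 0.05. Over all tested genes edgeR called 0.265%, DESeq2 called 81 genes and 9.3% had such a *P*. The 6 markers of induced T_regs_ (*Foxp3*, *Il2ra*, *Ctla4*, *Ikzf4*, *Tnfrsf18* and *Lrrc32*) summed to 3696, 3591, 3713 and 3575 CPM in control replicates 1 to 4. They summed to 3338, 3487, 3433 and 3322 CPM in floxed replicates 1 to 4. The sums of the 2 genotypes did not overlap, with *Il2ra*, at 2025 to 2369.6 CPM, as the most abundant gene of the list, and the difference in the sum was not tested. Over its other 5 genes, the log2 fold change was −0.38 for *Lrrc32* (95% interval −0.57 to −0.18), −0.13 for *Il2ra* (−0.2 to −0.053), −0.12 for *Ikzf4* (−0.22 to −0.021), −0.059 for *Tnfrsf18* (−0.16 to 0.047) and 0.062 for *Ctla4* (−0.025 to 0.15). None of these 5 was called by edgeR (lowest adjusted p 0.102, for *Lrrc32*), 3 had an unadjusted *P* under 0.05, beside the shares just given, and DESeq2 called 1, *Il2ra*. *Lrrc32* was called with the replicate block, with voom and without floxed replicate 2, where 87, 95 and 162 of all tested genes were called. The genotypes did not overlap for *Lrrc32* and *Il2ra*, beside 4.89% over all tested genes. In RNA from whole cultures, fewer cells of a type and less RNA per cell cannot be told apart. *Foxp3* itself had 117, 122, 107 and 93.8 CPM in controls and 77.2, 105, 93.2 and 78.1 CPM in floxed cultures, values that overlapped. Its log2 fold change was −0.31 (95% interval −0.5 to −0.13, edgeR adjusted p = 0.152), and over the 15 alternatives its adjusted p ranged from 0.0104 to 0.591. A two-sided exact permutation test over the 70 arrangements of the libraries gave p = 0.0571 for *Foxp3*, where the smallest p it allows is 0.0286. *Foxp3* was called with the replicate block (adjusted p = 0.0161), with voom (0.0416), without floxed replicate 2 (0.0104) and without control replicate 4 (0.0337). In that order these settings called 87, 95, 162 and 90 of all tested genes, against 30 in the fit used above. DESeq2 did not call *Foxp3* (adjusted p = 0.425).

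Markers of other cells were low. Both CD8 T cell markers, *Cd8a* and *Cd8b1*, had values, and their sum was 21.8 CPM in the library labelled control replicate 3 and between 6.68 and 9.93 CPM in the other 7 libraries. *Cd8b1* was the more abundant of the pair on average, at 5.64 to 10.5 CPM. Both were lower in floxed cultures at an unadjusted *P* under 0.05, with log2 fold changes of −2.15 for *Cd8a* (95% interval −3.57 to −0.73; edgeR adjusted p = 0.233) and −0.36 for *Cd8b1* (−0.7 to −0.02; edgeR adjusted p = 0.499), and neither was called by edgeR or by DESeq2, which gave no p for *Cd8a*. Without the library labelled control replicate 3 these were −0.43 and −0.22. Per the Methods, naïve CD4+ T cells were purified by negative selection before culture. The part of CD8 T cells in the T_reg_ marker values above was not tested. Of 5 B cell markers 3 had values, which summed to 1.09 to 3.71 CPM, led by *Cd79b* at 0.871 to 2.03 CPM. *Pax5*, singled out after its values were seen, had 1.61 CPM in the library labelled control replicate 3 and 0 to 0.425 CPM in the other 7. The B cell sum, which includes *Pax5*, was highest in that library too. *Cd79b*, at 1.54 CPM there, was the lowest of the controls. *Cd79a*, at 0.561 CPM there, lay below control replicate 4 (0.921 CPM) and floxed replicate 3 (0.676 CPM). Of 4 natural killer cell markers 2 had values, which summed to 2.38 to 4.48 CPM, led by *Eomes*. *Lyz2* was the sole myeloid marker of 5 with a value, at 0 CPM in all 4 controls, 0.653 CPM in floxed replicate 1, 1.22 CPM in replicate 4 and 0 in the other two. *Hbb-bt* was the sole erythroid marker of 5 with a value, at 0.225 to 0.911 CPM, and none of the 4 dendritic cell markers had one. Genes of the Y chromosome were transcribed in every library, with 4 of 5 listed genes summing to between 198 and 255 CPM.

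*Tdrd3* (ENSMUSG00000022019) spans 87654075 to 87782940 of chromosome 14 (GRCm39, plus strand), and its canonical transcript has 14 exons. Each value is a total over the gene, so reads from the floxed exons were not seen apart from the rest. In controls, replicates 1 to 4 had 275, 207, 142 and 250 counts of *Tdrd3*, or 18.8, 15.1, 9.95 and 17.7 CPM. With the floxed allele, replicates 1 to 4 had 189, 171, 172 and 164 counts, or 13.7, 10.7, 12.9 and 11.1 CPM. Replicates 1, 2 and 4 of the controls lay above every floxed library, and the library labelled control replicate 3 lay below all of them. *Tdrd3* RNA was thus present in all 8 libraries, and the targeted gene went against the label of that control. The sum of the 6 induced T_reg_ markers, led by *Il2ra*, was 3713 CPM in that library, above every floxed library (3322 to 3487 CPM). Whether the label is right was not tested. The mean of *Tdrd3* was 15.4 ± 3.95 CPM (SD, n = 4) in controls and 12.1 ± 1.43 CPM (SD, n = 4) in floxed cultures. This is a difference of −21.4%, with a 95% interval from −37.2% to −1.6% in edgeR's quasi-likelihood fit, or a log2 fold change of −0.35 (−0.67 to −0.023). It did not pass the threshold (edgeR adjusted p = 0.496 adjusted by Benjamini-Hochberg over 11317 genes). A two-sided exact permutation test over the 70 arrangements of the libraries gave p = 0.229, where the smallest p it allows is 0.0286. Without the library labelled control replicate 3 the log2 fold change was −0.51 (edgeR adjusted p = 0.115), and without control replicate 1 it was −0.23. Over the 15 alternatives tried the adjusted p ranged from 0.115 to 0.83.

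**Figure D1:**
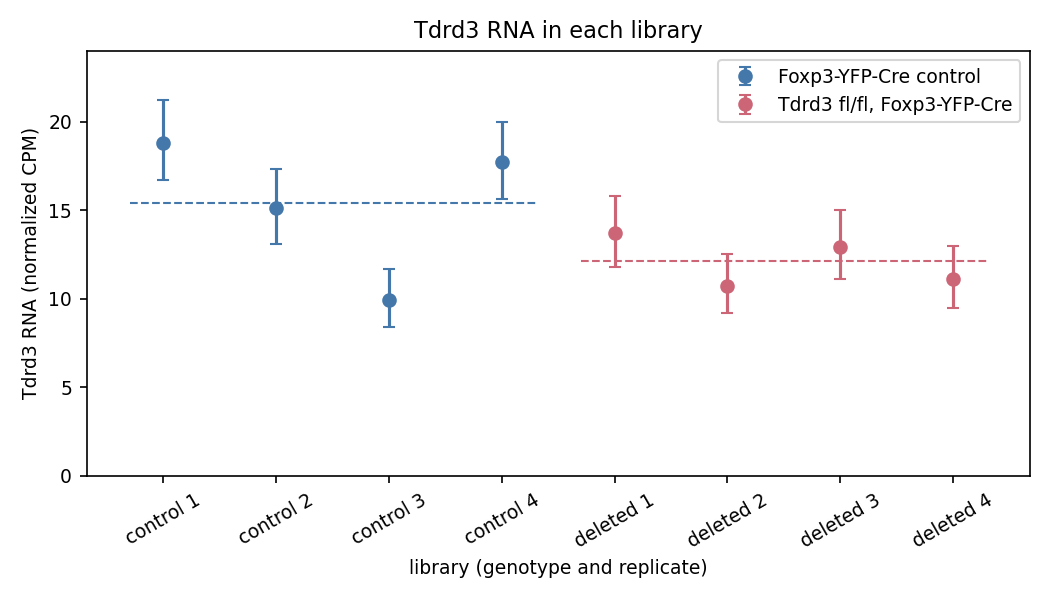
Normalized CPM of *Tdrd3* (y axis) in each of the 8 libraries (x axis), blue for controls and red for floxed cultures. Bars are 95% Poisson intervals of each count and dashed lines are the group means, 15.4 and 12.1 CPM; control 3, at 9.95 CPM, is the lowest of the 8 libraries.

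The coefficient of variation of *Tdrd3* between libraries was 25.7% in controls and 11.8% in floxed cultures, while the counting error at the mean count is 7.14%. Libraries of separate mice differ by more than counting error over the whole table, with a chi-square per degree of freedom of 2.58 to 6.11 between libraries of 1 genotype. The exact Poisson interval, which covers counting error only, ran from 8.38 to 11.7 CPM for the library labelled control replicate 3 and from 13.1 to 17.3 CPM for replicate 2, the control nearest to it. The control with the lowest *Tdrd3* also had the highest *Cd8a*, a coreceptor gene of CD8 T cells that was singled out after its values were seen: 11.3 CPM against 0.436 to 1.37 CPM in the other 7 libraries. *Pax5* was highest in that library as well, while the other B cell markers with values, *Cd79a* and *Cd79b*, were not. The negative selection for naïve CD4+ T cells came before culture, and the part of cells with *Cd8a* or *Pax5* in the *Tdrd3* value was not tested.

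The genes whose level followed that of *Tdrd3* most closely over the 8 libraries were *Sil1* (Pearson r = 0.956), *Cramp1* (r = 0.94), *Praf2* (r = 0.938), *Syvn1* (r = 0.935) and *Rhot2* (r = 0.928), ranked on log2(CPM + 0.5) among all tested genes. These r values are the top of a list of 11317 and describe these 8 libraries, in which the difference between genotypes can itself add to r. *Sil1*, a nucleotide exchange factor of the endoplasmic reticulum, was lowest in the library labelled control replicate 3, at 22.3 CPM, against 27.2, 26.2 and 27.8 CPM in the other 3 controls and 22.6 to 25.7 CPM in floxed libraries. *Syvn1*, a ubiquitin ligase of the same compartment, had 52.1, 48.1, 44.2 and 51.8 CPM in controls and 43.1 to 47.3 CPM in floxed libraries. That replicate 3 was the lowest control for both follows from how the genes were picked. Among the other 9 genes of the set, r with *Tdrd3* was 0.482 for *Top3a*, 0.27 for *Usp9x*, 0.18 for *Top3b*, and between −0.215 and −0.0565 for the rest.

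DNA beside a floxed allele is inherited with it, so tested genes around *Tdrd3* were read as well. The nearest before it was *Diaph3*, a formin that builds actin filaments, with a gap of 0.275 Mb between its near end and that of *Tdrd3*, followed by *Sugt1* and *Elf1* with gaps of 7.78 and 7.83 Mb. On the other side no tested gene lay within 10 Mb, and the nearest were *Mzt1*, *Bora* and *Dis3*, each with a gap of 11.5 Mb. *Diaph3* had 86.9, 89.7, 93.0 and 89.3 CPM in controls and 87.1, 89.7, 85.6 and 81.8 CPM in floxed cultures. These values overlapped, with a log2 fold change of −0.06 (95% interval −0.16 to 0.042). The other 5 had log2 fold changes of −0.016 for *Elf1*, −0.012 for *Sugt1*, 0.047 for *Mzt1*, −0.11 for *Bora* and 0.0037 for *Dis3*, and the interval of each held 0. Of the 15 tested genes whose lower coordinate lies within 10 Mb of that of *Tdrd3*, 9 were lower and 6 higher, with a median log2 fold change of −0.015. None of the 15 was called by edgeR (adjusted p under 0.05), 0 had an unadjusted *P* under 0.05 and DESeq2 called 0. Over all tested genes edgeR called 0.265%, DESeq2 called 81 genes and 9.3% had an unadjusted *P* under 0.05. Beside these shares a count of 0 of 15 says little. The most abundant of them per kilobase was *Tnfsf11*, which codes for the cytokine RANKL, at 117 to 159 CPM in controls and 124 to 149 CPM in floxed cultures.

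*Top3b* (ENSMUSG00000022779), on chromosome 16 from 16688600 to 16710854, codes for the topoisomerase that TDRD3 holds. It had 54.5, 52.5, 47.9 and 48.4 CPM in control replicates 1 to 4. It had 49.1, 51.1, 51.4 and 54.7 CPM in floxed replicates 1 to 4. The genotypes spanned nearly the same range, with means of 50.8 ± 3.19 and 51.6 ± 2.31 CPM (SD, n = 4 each). The difference was 1.48%, with a 95% interval from −7.27% to 11.0% (edgeR adjusted p = 0.952). A loss or gain of *Top3b* RNA beyond these bounds thus lies outside the interval, while smaller ones do not. Exons of *Top3b* overlap those of *Vpreb1a* over 139 bases and of *Gm60552* over 614 bases, both on the opposite strand, and whether the counting used strand was not stated, so reads there could belong to any of them. On the same strand, where strand does not help, *Fmr1* shares 95 bases with *Gm55068* and *G3bp1* shares 56 with *Mir7652*. The opposite-strand uncertainty also holds for *Fxr1*, whose exons overlap *Dnajc19* over 374 bases and *Gm43077* over 13, for *G3bp2* (*Gm71647*, 951 bases, and *Gm71618*, 256), for *Usp9x* (*Gm61952*, 458 bases) and for *Caprin1* (*Gm75186*, 269 bases, and *Gm75184*, 175).

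*Top3a* (ENSMUSG00000002814), on chromosome 11 from 60630884 to 60668191, codes for the paralog that works with BLM and RMI proteins to separate joined DNA molecules and also acts in mitochondria. Control replicates 1 to 4 had 39.4, 41.1, 38.1 and 41.1 CPM. floxed replicates 1 to 4 had 35.6, 39.0, 39.2 and 32.7 CPM. Replicates 1 and 4 with the floxed allele lay below every control, and replicates 2 and 3 lay within the range of the controls. The difference was −8.18% (95% interval −17.1% to 1.65%), a log2 fold change of −0.12, and it did not pass the threshold (edgeR adjusted p = 0.653). The two-sided exact permutation test gave p = 0.114.

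The balance between TDRD3 and its partner transcripts was also read within each library, where scaling between libraries cancels. Per 100 counts of *Top3b* there were 34.5, 28.7, 20.8 and 36.6 counts of *Tdrd3* in control replicates 1 to 4 and 28.0, 21.0, 25.1 and 20.4 in floxed replicates 1 to 4. The ratio of the library labelled control replicate 3 rests on the same low *Tdrd3* count given above, so it is no separate observation. The means of the ratio were 30.1 ± 7.07 and 23.6 ± 3.59 (SD, n = 4 each). Per kilobase of annotated exon, *Top3b* made up 51.2 ± 1.66% of the RNA of both type III topoisomerases in controls and 53.7 ± 2.89% in floxed cultures (SD, n = 4 each). These shares overlapped, with 49.3% to 53.3% in controls and 51.9% to 58.0% in the other genotype. On the length of the canonical transcripts alone the share of *Top3b* was 67.1 ± 1.46% and 69.3 ± 2.43% (SD, n = 4 each), so that its size depends on the transcripts counted.

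*Fmr1*, *Fxr1* and *Fxr2* code for FMRP, which binds messenger RNAs and restrains their translation, and for its 2 autosomal paralogs. *Fmr1* (ENSMUSG00000000838), on the X chromosome from 67722147 to 67761569, had 125, 120.3, 129.6 and 135 CPM in control replicates 1 to 4 and 119.9, 124, 126 and 135 CPM in floxed replicates 1 to 4. The genotypes covered the same range, and the difference was −1.0% (95% interval −7.84% to 6.34%). *Fxr1* (ENSMUSG00000027680), on chromosome 3 from 34074092 to 34124471, lay between 105 and 115 CPM in controls and between 104 and 117 CPM in floxed cultures, a difference of 0.393% (−6.63% to 7.95%). *Fxr2* (ENSMUSG00000018765), on chromosome 11 from 69523816 to 69544123, lay between 116 and 119 CPM in controls and between 113 and 124 CPM in the other genotype, a difference of 2.05% (−4.26% to 8.79%). Its coefficient of variation was 0.911% in controls, less than the 2.43% of counting error at its mean count, and 3.75% in floxed cultures. The edgeR adjusted p was 0.957 for *Fmr1*, 0.982 for *Fxr1* and 0.905 for *Fxr2*.

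Within the family, *Fxr2* was the most abundant per kilobase of annotated exon. It made up 54.3 ± 0.633% of the RNA of the 3 genes in controls and 54.9 ± 1.36% in floxed cultures (SD, n = 4 each). *Fmr1* made up 24.7 ± 0.94% and 24.2 ± 1.06%, and *Fxr1* 21.1 ± 0.816% and 21.0 ± 1.38% (SD, n = 4 each). For each of the 3 the shares overlapped between genotypes. On canonical transcript length *Fxr2* was still the most abundant, at 40.6 ± 0.608% and 41.2 ± 1.35% (SD, n = 4 each), and *Fmr1* and *Fxr1* had equal shares of 29.7% in controls.

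*G3bp1* and *G3bp2* code for the RNA-binding proteins that start stress granules, and CAPRIN1 binds them and favours granule assembly. *G3bp1* (ENSMUSG00000018583), on chromosome 11 from 55360511 to 55395664, had 650.4, 659.8, 663 and 677 CPM in control replicates 1 to 4 and 648, 667, 679 and 669 CPM in floxed replicates 1 to 4. The libraries of the 2 genotypes interleaved, and the difference was 0.511% (95% interval −4.4% to 5.67%). *G3bp2* (ENSMUSG00000029405), on the minus strand of chromosome 5 from 92200005 to 92231578, lay between 242 and 274 CPM in controls and between 247 and 264 CPM in the other genotype, a difference of 0.818% (−5.44% to 7.48%). *Caprin1* (ENSMUSG00000027184), on the minus strand of chromosome 2 from 103593286 to 103627994, lay between 658 and 722 CPM in controls and between 645 and 698 CPM in floxed cultures, a difference of −0.607% (−6.13% to 5.24%). The edgeR adjusted p of these granule genes was 0.967, 0.96 and 0.966. Per kilobase of annotated exon *G3bp1* made up 71.0 ± 0.868% of the RNA of the *G3bp* pair in controls and 70.9 ± 0.862% in floxed cultures (SD, n = 4 each).

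*Usp9x* (ENSMUSG00000031010), on the X chromosome from 12937737 to 13039567, codes for a large deubiquitinase. It had 301, 305, 289 and 315 CPM in control replicates 1 to 4 and 289.7, 316, 300 and 301 CPM in floxed replicates 1 to 4. The genotypes had the same mean of 302 CPM, with a 95% interval of the difference from −5.95% to 5.9% (edgeR adjusted p = 0.99). Estimated counts of *G3bp1*, *Caprin1* and *Usp9x* were not whole numbers, lying up to 0.49, 0.45 and 0.42 counts from the nearest one, as happens when reads that match several places are divided among them. The distance from a whole number does not say how many reads were divided, so the levels of these 3 genes carry an uncertainty of unknown size. The same applies to *G3bp2*, *Fmr1*, *Fxr1*, *Top3b* and *Top3a*, whose counts lay up to 0.06, 0.01, 0.01, 0.006 and 0.003 from a whole number. The counts of *Tdrd3* and *Fxr2* were whole.

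**Figure D2:**
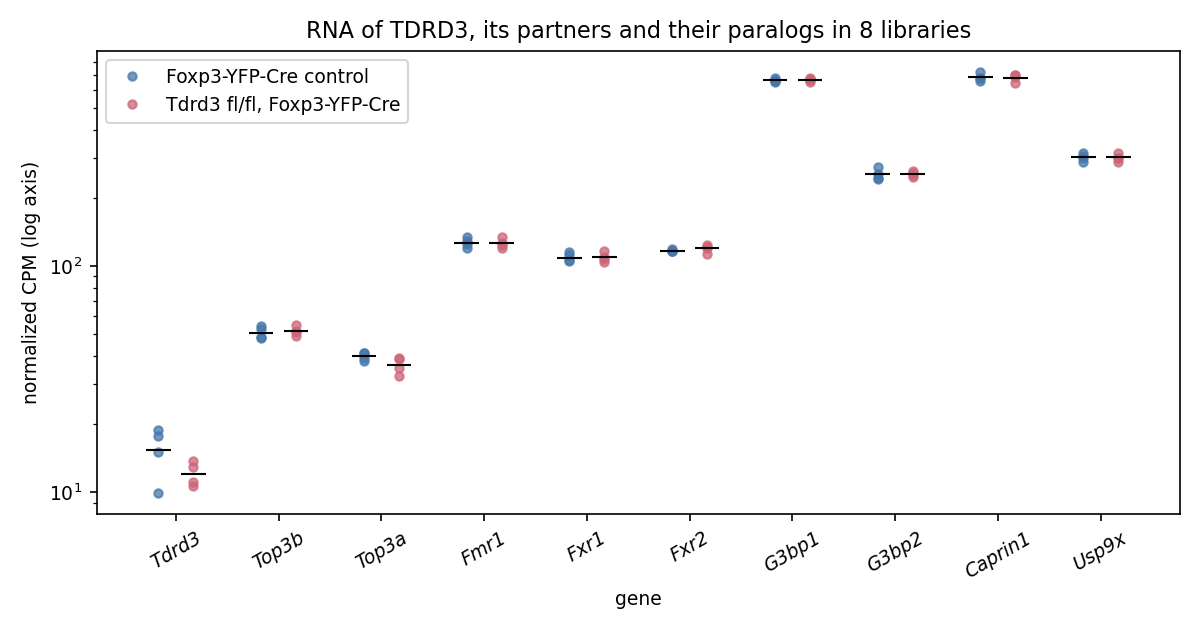
Normalized CPM on a log axis (y axis) of the 10 genes (x axis) in the 4 control libraries (blue points) and the 4 floxed libraries (red points), with black lines at the group means. The points of the genotypes overlap for all 10 genes, and *Tdrd3* has the widest spread on this axis, from 9.95 to 18.8 CPM in controls.

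None of the 10 genes was called by edgeR, whose quasi-likelihood test called 30 of the 11317 tested genes at an adjusted p under 0.05, or 0.265%: 23 lower (0.203%) and 7 higher (0.0619%) in floxed cultures. DESeq2 called 0 of the 10 as well, beside 81 of all tested genes. The number called over all tested genes moved between 6 and 162 when single libraries were left out, and was 10 without the library labelled control replicate 3, with 0 of the 10 genes called each time. An unadjusted *P* under 0.05 was found for 1 of the 10, *Tdrd3*, beside 1052 of all tested genes (9.3%). *Tdrd3* was also the sole gene of the 10 among the 192 genes (1.7%) that were lower with an unadjusted *P* under 0.05 and a fold of at least 1.2. Genotypes without overlap were found for 0 of the 10, beside 553 of all tested genes (4.89%). With so few genes, a count of 0 or 1 says little beside these shares, and *Tdrd3* is the gene that was targeted. The point estimates were below 0 for 5 genes and above 0 for 5, with a median log2 fold change of 0.0014, beside 0.0013 over all tested genes. A p that misses the threshold does not show that levels were alike, so the intervals carry the comparison. For 8 of the 10 the 95% interval stayed within a 1.2-fold change either way, as it did for 6691 of the 11317 tested genes (59.1%). The exceptions were *Tdrd3* and *Top3a*, whose intervals reached a 1.2-fold fall, and no interval among the 10 reached a 1.2-fold rise.

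**Figure D3:**
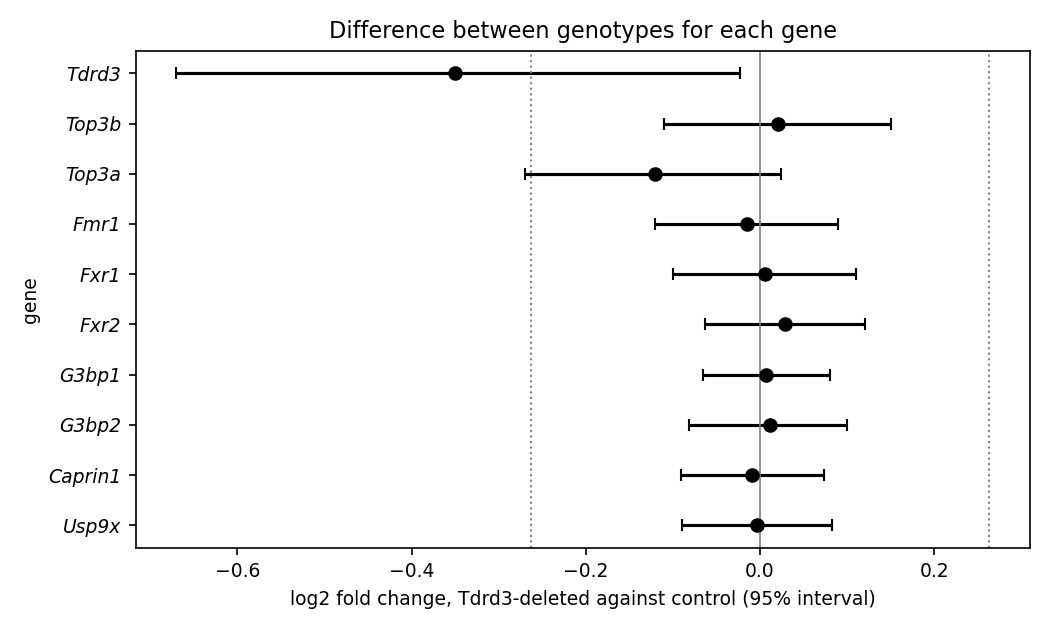
Log2 fold change (x axis) of each of the 10 genes (y axis) in floxed against control cultures, with bars for the 95% interval of edgeR's fit on 4 libraries of each genotype and dotted lines at a 1.2-fold change. The interval of *Tdrd3* runs from −0.67 to −0.023, and the intervals of the other 9 genes hold 0.

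Levels were compared between genes per kilobase of annotated exon. In controls *G3bp1* (65.3 ± 1.07 CPM per kilobase) and *Caprin1* (62.2 ± 2.44) were the most abundant and overlapped over the 8 libraries. They were followed by *Fxr2* (30.6 ± 0.279), *G3bp2* (26.7 ± 1.53), *Usp9x* (18.4 ± 0.663), *Fmr1* (13.9 ± 0.693) and *Fxr1* (11.9 ± 0.517), each separate from the next in all 8 libraries. *Top3b* (5.52 ± 0.346) and *Top3a* (5.26 ± 0.19) overlapped, and *Tdrd3* was the lowest, at 1.66 ± 0.425 CPM per kilobase in controls and 1.31 ± 0.154 in floxed cultures (SD, n = 4 throughout). On this scale 20.5% of the tested genes lay below *Tdrd3*, 48.8% below *Top3b* and 96.1% below *G3bp1*. *Tdrd3* was thus the scarcest transcript of the set on this scale. On canonical transcript length the order changed in the middle, with *G3bp2* above *Fxr2* and with *Fxr1* and *Fmr1*, which overlapped, above *Usp9x*. On that scale the range of *Tdrd3*, from 3.15 to 5.95 CPM per kilobase, met that of *Top3a*, from 5.83 to 7.33, but not that of *Top3b*, from 13.7 to 15.7.

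Other proteins that FMRP binds or works with in translation, a list of 16 genes that includes *Cyfip1*, *Cyfip2*, *Eif4e*, *Ago2* and *Stau1*, were all tested. None was called by edgeR, beside 0.265% over all tested genes. Of the 16, 2 had an unadjusted *P* under 0.05 (9.3% over all tested genes), and DESeq2 called 0, beside 81 of all tested genes. Of the 16, 10 were lower and 6 higher, with a median log2 fold change of −0.0081. *Ybx1*, which codes for the messenger RNA packaging protein YB-1 and was the most abundant of the list per kilobase, had 1162, 1141, 1268 and 1189 CPM in controls and 1295, 1289, 1269.8 and 1243 CPM in floxed cultures. Its log2 fold change was 0.1 (95% interval 0.02 to 0.18), and the library labelled control replicate 3 lay above floxed replicate 4 (edgeR adjusted p = 0.38). *Nufip2*, which codes for an FMRP-interacting protein, had a log2 fold change of −0.1 (−0.21 to −0.0026), with values from 101 to 114 CPM in controls and from 99.7 to 104 CPM in the other genotype (edgeR adjusted p = 0.516). The genotypes did not overlap for 1 of the 16 (4.89% over all tested genes), *Ranbp10*, singled out after its values were seen, at 68.3 to 73.9 CPM in controls and 63.5 to 66.7 CPM in floxed cultures.

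Proteins of stress granules and other RNA granules, a list of 38 genes that includes *Tia1*, *Atxn2*, *Ubap2l*, *Usp10*, *Ddx3x* and *Ddx6*, were all tested as well. None was called by edgeR, 0 of the 38 had an unadjusted *P* under 0.05, and DESeq2 called 0. Over all tested genes edgeR called 0.265%, DESeq2 called 81 genes and 9.3% had such a *P*. Their log2 fold changes lay between −0.08 and 0.09, with 21 lower and 17 higher and a median of −0.0028. *Pabpc1*, the cytoplasmic poly(A)-binding protein gene and the most abundant of the list per kilobase, had 2116, 2144, 2152 and 2226 CPM in controls and 2255, 2269, 2204 and 2190.3 CPM in floxed cultures. Its values overlapped, and its difference was 3.25% (95% interval −1.5% to 8.23%).

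Of 33 other genes of proteins with Tudor or related domains, 25 had values and were tested. None was called by edgeR, beside 0.265% over all tested genes. An unadjusted *P* under 0.05 was found for 3 (1 lower and 2 higher), beside 9.3% over all tested genes. DESeq2 called 1, *Tdrkh*, of the 81 genes it called in all. TDRKH is a mitochondrial protein known for its part in the piRNA pathway of germ cells. *Tdrkh* had 24.6, 24.2, 27.1 and 28.8 CPM in controls and 35.4, 31.6, 31.3 and 32.6 CPM in floxed cultures, every one of which lay above every control. Its mean was 26.2 ± 2.14 CPM in controls and 32.7 ± 1.84 CPM in the other genotype (SD, n = 4 each), a difference of 24.9% (95% interval 11.7% to 39.6%) and a log2 fold change of 0.32. The adjusted p was 0.0848 with edgeR and 0.0406 with DESeq2, and it ranged from 0.032 to 0.392 over the 15 alternatives. *Phf20*, a reader of histone methylation, had 40.3 to 45.4 CPM in controls and 45.4 to 51.7 CPM in floxed cultures, a log2 fold change of 0.15 (0.015 to 0.29); its highest control and lowest floxed library differed by less than the rounding. *Lbr*, which codes for the lamin B receptor, had 349, 351, 335 and 351 CPM in controls and 307, 344, 333 and 319.8 CPM in the other genotype, a log2 fold change of −0.088 (−0.17 to −0.0022). The edgeR adjusted p was 0.478 for *Phf20* and 0.516 for *Lbr*. *Tdrkh* and *Phf20* were the 2 genes of the list whose genotypes did not overlap, beside 4.89% over all tested genes. The most abundant per kilobase, *Uhrf1*, which maintains DNA methylation at replication, had 457 to 469 CPM in controls and 446 to 494 CPM in floxed cultures. Of the 25, 14 were lower and 11 higher, with a median log2 fold change of −0.0074.

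The remaining topoisomerases and the partners of TOP3A at recombination intermediates were listed together with *Tdp1* and *Tdp2*. All genes of this list of 12, which includes *Top1*, *Top2b*, *Blm*, *Rmi1* and *Rmi2*, were tested. None was called by edgeR (0.265% over all tested genes), and DESeq2 called 0, beside 81 of all tested genes. An unadjusted *P* under 0.05 was found for 1 (9.3% over all tested genes). That gene was *Rpa2*, a subunit of the protein that covers single-stranded DNA, with 94.8, 104, 102 and 93.6 CPM in controls and 90.1, 95.5, 85.7 and 93.4 CPM in floxed cultures. These values overlapped, with a log2 fold change of −0.11 (95% interval −0.22 to −0.0027; edgeR adjusted p = 0.516). The genotypes did not overlap for 1 of the 12 (4.89% over all tested genes), *Rmi1*, singled out after its values were seen, at 47.2 to 49.9 CPM in controls and 45.2 to 46.4 CPM in the other genotype. The most abundant per kilobase was *Top2a*, the topoisomerase of dividing cells, at 1128 to 1161 CPM in controls and 1084 to 1153 CPM in floxed cultures. Of the 12, 6 were lower and 6 higher, with a median log2 fold change of −0.01. Over all tested genes, 5585 were lower and 5732 higher.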

How the data were processed

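The authors deposited estimated counts per gene, not normalized, for naïve CD4+ T cells polarized for 36 hours in 8 libraries. Per the submitters' processing notes, reads were aligned with STAR 2.7.8a to GRCm39 in Partek. The Methods name its E/M algorithm, which divides reads that match several genes, so counts need not be whole (43% of the values, over genes and libraries, differed from a whole number by any amount). Libraries were rRNA-depleted total RNA; strand handling was not given in the sources used here. The Methods name fewer replicates per genotype than the labels, which give 4, each described as from an independent mouse; all 8 were used. The members and gene lists were chosen with earlier results of these data known.

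Estimated counts were rounded to whole numbers, filtered with filterByExpr (594 of 11911 genes left out), scaled by TMM (factors 0.993 to 1.00) and tested for genotype alone with the two-sided quasi-likelihood test of edgeR 4.0.16 (R 4.3.3), adjusted by Benjamini-Hochberg over 11317 genes and 95% intervals from the same fit. The test was tried first on simulated counts. Single values had an exact permutation test on log2(CPM + 0.5). In CPM, 3 counts correspond to 0.188 to 0.225. Intervals of single libraries cover counting error only. Counts of libraries of one genotype differed by a chi-square per degree of freedom of 2.58 to 6.11, so none was a duplicate. Exon lengths came from the GENCODE annotation of GRCm39, as the total of all annotated exons of a gene or of its canonical transcript. Alternatives were a fit by DESeq2 1.42.0, one by limma 3.58.1 voom with quality weights, scaling by the size factors of DESeq2 or by totals alone, no filter or a minimum of 10 counts per library, a replicate block, and leaving out each library in turn. Named genes were the 10 members, from each list the most abundant per kilobase and those with an unadjusted or adjusted p under 0.05, the nearest 3 tested genes on each side of *Tdrd3*, the 5 most correlated with it, and *Foxp3*, beside the cell type markers. *Cd8a*, *Pax5*, *Ranbp10* and *Rmi1* were named outside this rule, after their values were seen. Figures were drawn with matplotlib 3.10.9 in Python 3.11.15.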

Additional observations from a re-analysis of the deposited data

Results flagged for a closer look

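Among 48 genes named with values, each read in both genotypes, 8 of 96 groups of 4 libraries had 1 library far from the other 3, by the ratio of its gap to the range of the group. Chance gives about 1 such group in 20. Of the 8, 3 were in genes named after their values were seen, *Cd8a* and *Pax5*, for which that share is no yardstick. Without the genes so named it was 5 of 88 groups. The 88 still held genes named for an unadjusted *P* under 0.05, such as *Lbr*, and genes named for their correlation with *Tdrd3*. For those genes the share is no yardstick either. *Cd8a* was 11.3 CPM in the library labelled control replicate 3, where the nearest control had 1.37 CPM. *Pax5* was 1.61 CPM in the same library, where the nearest control had 0.425 CPM, and was lowest in floxed replicate 4, at 0 CPM, where the nearest had 0.188 CPM, the value of 3 counts there. *Lbr* was lowest in that control library, at 335 CPM, where the nearest control had 349 CPM. *Uhrf1* was highest in floxed replicate 3, at 494 CPM, where the nearest library of that genotype had 452 CPM. *Ikzf4* was highest in the same floxed library, at 233 CPM, where the nearest had 217 CPM, and so was *Cd3e*, at 160.4 CPM, where the nearest had 142 CPM. *Dis3* was highest in floxed replicate 2, at 137 CPM, where the nearest had 125 CPM. *Tdrd3* in the library labelled control replicate 3, at 9.95 CPM, did not meet this rule because the other 3 controls were themselves spread from 15.1 to 18.8 CPM.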

How the results depend on the processing

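*Tdrd3* was lower in floxed cultures and not called under all 15 alternatives, with log2 fold changes from −0.51 without the library labelled control replicate 3 to −0.23 without replicate 1. *Top3a* was lower (−0.16 to −0.072) and *Fxr2* higher (0.013 to 0.054) under all 15, and neither was called. None of the 10 genes was called by edgeR, DESeq2 or voom under any of them. For the other 7 genes, whose log2 fold changes lay near 0, the sign depended on the library left out: values then ran from −0.0088 to 0.056 for *Top3b*, −0.047 to 0.013 for *Fmr1*, −0.03 to 0.032 for *Fxr1*, −0.0023 to 0.019 for *G3bp1*, −0.0095 to 0.049 for *G3bp2*, −0.029 to 0.017 for *Caprin1* and −0.028 to 0.016 for *Usp9x*. With voom the sign turned, to −0.0012 for *Top3b*, −0.0097 for *Fxr1* and 0.0054 for *Caprin1*. The cause was not tested. No filter or scaling turned a sign.

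The number of tested genes called was 30, and it was 81 with DESeq2 and 95 with voom. Without control replicates 1, 2, 3 and 4 in turn it was 8, 12, 10 and 90, and without floxed replicates 1, 2, 3 and 4 it was 6, 162, 19 and 7. The cause was not tested. Under the filters and scalings it was 30 to 33. Of the gene lists, the Tudor list had 1 gene called, *Tdrkh*, with DESeq2, with voom and without control replicate 4, and 0 in the other 12 alternatives; the other 4 lists had 0 in all 15. With a replicate block the count was 87 and the log2 fold change of *Tdrd3* was −0.33 (edgeR adjusted p = 0.502, in a range from 0.115 to 0.83). Same-numbered libraries share only a number: their deviations from the genotype means correlated at −0.0458 to 0.0691, and 1 of 8 libraries correlated best with its own number.

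*Tdrd3* had 142 to 275 counts per library, the fewest of the 10 genes, and the widest interval among them. Totals per gene do not separate deleted from intact transcripts, or cells with Cre from cells without it.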
